A study of Homo sapiens with 18 samples.

Results

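Kinesins are motor proteins that use ATP to move along microtubules or to shorten them. The kinesin genes described here are those whose symbol is KIF followed by digits with an optional letter and digit, or is *KIFC1*, *KIFC2* or *KIFC3*, and whose mean normalized count over all samples was at least 10. This rule gave 38 genes of the 26702 in the tables, and 18456 genes of all kinds reached the same mean. By their textbook roles, 13 of the 38 were grouped as mitotic kinesins, 17 as transport kinesins, and 8 as other kinesins. This grouping was made with earlier results of these data known. *KIF2A* and *KIF24*, which could also be counted as mitotic, were placed among the other kinesins. Of 40 names that fit the pattern, *KIF19* with a mean of 1.96 and *KIF25* with a mean of 2.08 normalized counts were below the minimum, whereas *KIF26B* with 13.2 and *KIF6* with 40.2 were the members just above it. *KIF2B*, *KIF12* and *KIF28P* had no row with such a mean.

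RNA-seq of polyadenylated RNA was made from U2OS, a human osteosarcoma cell line with wild-type p53. The cells were transfected with a control siRNA (siControl), with siANKRA2 or with siRFXANK, and then received either 10 µM Nutlin-3a or its solvent DMSO for 24 h. Each of the 6 groups held 3 samples, 18 in all. Nutlin-3a blocks MDM2 and so stabilizes p53, and ANKRA2 and RFXANK are ankyrin repeat proteins, the latter a partner of RFX transcription factors. The labels do not say whether the 3 samples of a group were separate cultures, so the p-values measure the spread between these samples, which may be technical. The siRFXANK samples were registered separately, with labels that name the cells differently, and had no siControl samples of their own. The effect of siRFXANK and a batch difference therefore cannot be told apart in siRFXANK over siControl.

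The tables hold comparisons between groups and no value per library, so levels are given as group means in normalized counts that were recovered from the fold changes and their standard errors. For the kinesin genes the deposited mean divided by the average over the recovered groups ran from 0.742 to 1.48 with a median of 1.02, and the recovered means are approximate to that extent. Library depths are unknown. The direction of the knockdown comparisons was read so that each target is lower after its own siRNA. *ANKRA2* then had log2 fold changes of -1.81 (DMSO) and -2.58 (Nutlin-3a) after siANKRA2, and *RFXANK* had -2.96 and -3.16 after siRFXANK. *RFXANK* was also lower after siANKRA2, by -0.37 in DMSO and -0.44 in Nutlin-3a, and *ANKRA2* was higher after siRFXANK, by 0.73 and 0.46. All 6 mesenchymal or bone lineage markers that were looked up reached the minimum mean, from a low 33.2 normalized counts for *COL1A2* to 64042 for *COL1A1*. Of 6 epithelial markers, *KRT8* (21456) and *KRT18* (12960) were abundant, *EPCAM* (161) and *CDH1* (32.9) were low, and *ESRP1* (7.77) and *KRT19* (1.67) were below the minimum. The median log2 value over all genes with a mean of at least 10 lay between -0.02 and 0.01 in every comparison.

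Mitotic kinesins build and reshape the spindle, move chromosomes and complete cell division, and their mRNAs peak in G2 and mitosis. As background, p53 raises *CDKN1A*, whose product p21 lets the DREAM and RB complexes repress G2 and mitosis genes, often through a promoter element near the start site called the cell cycle homology region (CHR), with the letters TTTGAA or TTTAAA. Transport kinesins carry vesicles, mitochondria, mRNA and ciliary components, and most cell types use some of them whether or not the cells divide.

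CHR letters were searched on both strands of the RefSeq promoter windows on GRCh38.p14, which run from 250 bases before to 50 bases after a start site. Of the 38 genes, 31 had a window. The letters TTTGAA or TTTAAA were present in 12 of the 14 windows (85.7%) of the 13 mitotic kinesin genes, in 2 of the 17 windows (11.8%) of 12 transport kinesin genes, in 0 of the 8 windows of 6 other kinesin genes, and in 24% of all 35116 windows. Within 50 bases of the start site they were in 11 of 14 windows (78.6%) of the mitotic class, in 0 windows of the other classes, and in 7.62% of all windows. CCAAT, which has no overlap with these letters, was in 78.6% of the mitotic, 29.4% of the transport and 25% of the other kinesin windows, against 34.6% of all windows. *KIF22* was the mitotic kinesin gene without the letters in either of its 2 windows. A match of letters is a description of the sequence and not a measured binding site. The promoter windows of *KIF26B*, *KIF27*, *KIF13B*, *KIF21B*, *KIF5A*, *KIFC2* and *KIFC3* were not analysed here.

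Of the following 30-base stretches, those of *KIF4A* and *KIF4B* are shown because these genes share sequence. *KIF5B* is shown as a transport kinesin that holds the letters far from its start site. The others are shown because their genes lead the comparisons described next. The capitals mark TTTGAA as read or as its reverse complement TTCAAA, and in *KIF20A* they mark TTTAAA, and each stretch is written 5′ to 3′ on the strand of its gene. The stretches are at chr10:92593090-92593119 (plus strand) for *KIF11*, chr1:200620733-200620762 (minus strand) for *KIF14*, chr17:44947754-44947783 (minus strand) for *KIF18B*, chr5:138179059-138179088 (plus strand) for *KIF20A*, chr15:69414282-69414311 (plus strand) for *KIF23*, chrX:70290058-70290087 (plus strand) for *KIF4A*, chr5:155013746-155013775 (plus strand) for *KIF4B* and chr10:32056548-32056577 (minus strand) for *KIF5B*. Relative to the start site, the first capital is at -28 for *KIF11*, 1 for *KIF14*, 2 for *KIF18B*, -41 for *KIF20A*, -55 for *KIF23*, -34 for *KIF4A*, 3 for *KIF4B* and -140 for *KIF5B*.
KIF11: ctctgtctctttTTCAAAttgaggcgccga
KIF14: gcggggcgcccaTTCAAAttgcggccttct
KIF18B: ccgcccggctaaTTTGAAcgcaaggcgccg
KIF20A: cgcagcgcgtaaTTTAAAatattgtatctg
KIF23: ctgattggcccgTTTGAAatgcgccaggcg
KIF4A: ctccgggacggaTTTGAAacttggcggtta
KIF4B: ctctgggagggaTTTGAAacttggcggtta
KIF5B: agtgcagtaaaaTTTGAAtctgcgaccccg

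Per length, the kinesin genes spanned a wide range of levels. The deposited mean over all samples, divided by the length of the merged exons in GENCODE 29, was highest for *KIF2C* with 1187 normalized counts per kb, followed by *KIF5B* with 1089, *KIF3B* with 1077 and *KIF1C* with 1012. *KIF20A* had 834 and *KIFC1* 823 normalized counts per kb. At the low end were *KIF26B* with 0.917, *KIF6* with 3.39, *KIF27* with 25.7 and *KIF21B* with 35.5 normalized counts per kb. These means pool treated and untreated samples and carry no error of their own, and the order at the top differed between groups. In siControl with DMSO the highest recovered means per kb were those of *KIF2C* (1927), *KIF20A* (1682) and *KIFC1* (1442), all mitotic. In siControl with Nutlin-3a they were those of the transport kinesins *KIF1C* (1340), *KIF3B* (1295) and *KIF5B* (863), and *KIF2C* was at 546. Several members share sequence or position with other genes, and the use of strand in counting is not given in the sources used here. In *KIF4A*, 28.6% of the 31-base stretches of the longest transcript occur in other genes, nearly all of them in *KIF4B*, where the share is 28.2%, so the values of the pair are uncertain. *KIF27* shares 41.5% of its stretches. *KIF20A* (chr5:138178719-138187715) overlaps *BRD8* and *CDC23* on the opposite strand, *KIFC2* overlaps *FOXH1*, *KIF24* overlaps *UBAP1*, *KIF7* overlaps *TICRR* and *KIF18A* overlaps *METTL15*.

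**Figure D1:**
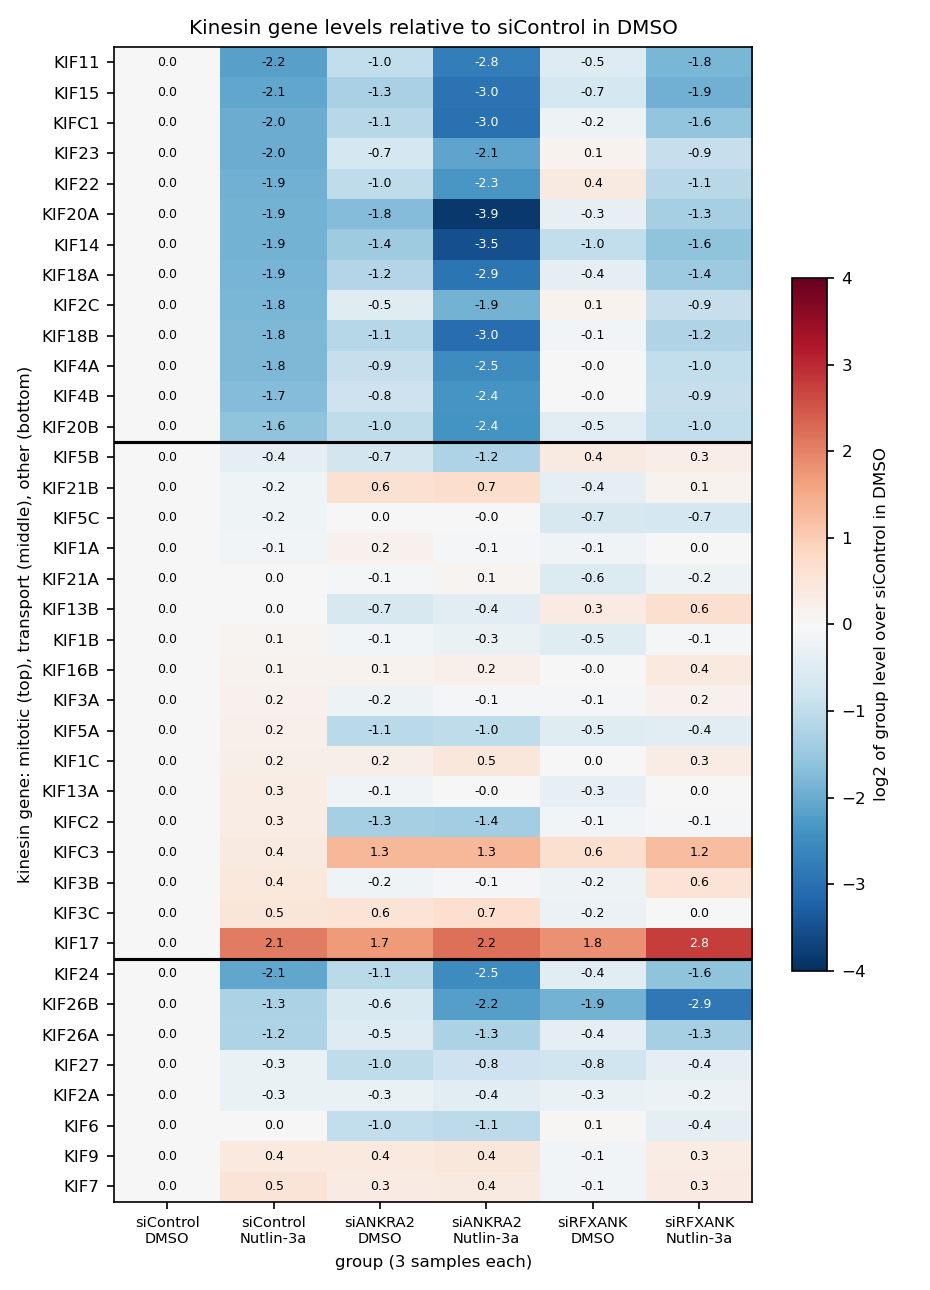
Heat map of the level of each of the 38 kinesin genes (rows, by class) in the 6 groups (columns, 3 samples each), as log2 of the group level over siControl in DMSO, which is 0 by definition; blue is lower and red is higher. The 13 mitotic kinesin genes are lower than siControl in DMSO in all 3 Nutlin-3a groups, with the lowest value for *KIF20A* in siANKRA2 with Nutlin-3a. Among the transport kinesin genes *KIF17*, *KIFC3* and *KIF1C* are higher in every other group, *KIF1C* by at most 0.45.

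The first comparison asked how kinesin genes respond to p53 activation in siControl cells. All 13 mitotic kinesin genes fell after Nutlin-3a, to between 22.4% and 32.9% of their level in DMSO. Of the 17 transport kinesin genes, 7 rose, 1 fell and 9 did not pass the test, with *KIF17* the one that changed by more than 2-fold. Over all genes, 28.8% were higher and 28.9% were lower by the deposited DESeq2 adjusted p. The median log2 fold change was -1.88 for the mitotic class, with values from -2.16 to -1.60, and 0.17 for the transport class. In bulk RNA, fewer cells in mitosis and less of these mRNAs per cell cannot be told apart.

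Among the mitotic kinesins, *KIF11* (ENSG00000138160), the motor that slides spindle poles apart, had recovered group means of 4796 normalized counts in DMSO and 1074 in Nutlin-3a, a log2 fold change of -2.16 ± 0.06 (SE, adjusted p = 1.3e-265). *KIF15*, which can take over part of that work, had 1691 and 400 normalized counts, a log2 fold change of -2.08 ± 0.08 (adjusted p = 1.7e-144). *KIFC1*, a minus-end motor that bundles spindle poles, had 4825 and 1214 normalized counts and a log2 fold change of -1.99 ± 0.05. *KIF23*, the motor of the centralspindlin complex in cytokinesis, had 5622 and 1425 normalized counts and a log2 fold change of -1.98 ± 0.06 (adjusted p = 3.2e-248). *KIF22*, a chromosome-bound motor, had 3922 and 1038 normalized counts and a log2 fold change of -1.92 ± 0.05. *KIFC1* and *KIF22* had adjusted p-values listed as 0. The smallest fall of the class, -1.60 ± 0.07, was that of *KIF20B*, a motor of late cytokinesis.

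*KIF17* (ENSG00000117245, chr1:20664014-20718017), a motor of cilia and dendrites, stood apart from the other transport kinesins. Its recovered group mean was 114 normalized counts in siControl with DMSO and 486 with Nutlin-3a, a log2 fold change of 2.09 ± 0.11 (adjusted p = 1.1e-81). The other 4 transport kinesins with the largest called changes moved by far less. *KIF3C*, a kinesin-2 subunit, changed by 0.47 ± 0.05 (adjusted p = 1.3e-16) and its relative *KIF3B* by 0.41 ± 0.05 (adjusted p = 1.1e-13). *KIFC3*, a minus-end motor found at cell junctions, rose by 0.37 ± 0.04 (adjusted p = 2.6e-16), from 2596 to 3366 normalized counts. *KIF5B*, the widely expressed heavy chain of kinesin-1, fell from 6700 to 5071 normalized counts, a log2 fold change of -0.40 ± 0.05 (adjusted p = 5.6e-14), and was the only transport kinesin gene that fell in this comparison. *KIF13A*, *KIF1C* and *KIF3A* were the remaining ones that rose, by 0.30, 0.23 and 0.17.

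The 8 other kinesins were mixed, with 2 higher, 4 lower and 2 not called, against 28.8% of all genes higher and 28.9% lower. *KIF24*, which caps centrioles and restrains cilia, had a log2 fold change of -2.08 ± 0.10 (adjusted p = 1.2e-95), inside the range of the mitotic class. *KIF26A* and *KIF26B*, atypical kinesins, had -1.24 and -1.27, and *KIF2A*, a microtubule depolymerizer, had -0.28. Had *KIF2A* been counted as mitotic, the range of that class would have reached -0.28. *KIF7*, a regulator of Hedgehog signalling at the tip of the cilium, rose by 0.50 ± 0.05 and *KIF9* by 0.38 ± 0.09. *KIF27* (-0.28) and *KIF6* (0.03) did not pass the test.

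The same question was asked in siANKRA2 cells. All 13 mitotic kinesin genes fell with Nutlin-3a in this state too, against 20.6% of all genes that were lower and 18.4% that were higher. The median log2 fold change of the class was -1.66, with values from -2.12 to -1.30. *KIF20A* (ENSG00000112984), which brings the chromosomal passenger complex to the spindle midzone, had recovered group means of 1982 normalized counts in siANKRA2 with DMSO and 456 with Nutlin-3a, a log2 fold change of -2.12 ± 0.07 (adjusted p = 3.2e-192). *KIF14* (ENSG00000118193), a cytokinesis motor that binds citron kinase, had 788 and 183 normalized counts and -2.10 ± 0.11 (adjusted p = 2.0e-80). *KIF18B*, which acts at the plus ends of astral microtubules, had -1.90 ± 0.07 (adjusted p = 1.2e-154), *KIFC1* had -1.85 ± 0.05 (adjusted p = 3.7e-252) and *KIF11* had -1.77 ± 0.07 (adjusted p = 4.3e-157).

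Of the 17 transport kinesin genes in siANKRA2 cells, 3 rose, 2 fell and 12 did not pass the test, with a median of 0.07. Over all genes 18.4% were higher and 20.6% were lower, so the count that rose is near the share over all genes. *KIF17* rose by 0.49 ± 0.09 (adjusted p = 1.7e-07), from 375 to 525 normalized counts. *KIF1C*, a vesicle motor, rose by 0.22 ± 0.03 (adjusted p = 4.1e-11) and *KIF21A*, which limits microtubule growth at the cell cortex, by 0.20 ± 0.06 (adjusted p = 0.0014). *KIF5B* had -0.47 ± 0.05 (adjusted p = 1.3e-17) and *KIF1A*, a carrier of synaptic vesicle precursors, had -0.23 ± 0.06 (adjusted p = 8.6e-04). Outside both classes, *KIF26B* (-1.57), *KIF24* (-1.46), *KIF26A* (-0.75) and *KIF2A* (-0.16) were lower, and *KIF27* (0.19), *KIF7* (0.05), *KIF9* (0.04) and *KIF6* (-0.08) did not pass.

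No table compares Nutlin-3a with DMSO in siRFXANK cells, so this response was derived from 3 tables. The shared siControl groups cancel in it if these come from the same fit, which could not be checked for siRFXANK. All 13 mitotic kinesin genes were lower by the normal test with Benjamini-Hochberg adjustment, against 29.6% of all genes lower and 29.2% higher. The median of the class was -1.06, with values from -1.49 to -0.54. *KIF22* had -1.49 ± 0.05 (adjusted p = 3.3e-210), *KIFC1* -1.38 ± 0.05 (adjusted p = 1.9e-200), *KIF11* -1.31 ± 0.06 (adjusted p = 2.3e-99), *KIF15* -1.21 ± 0.08 (adjusted p = 2.8e-48) and *KIF18B* -1.08 ± 0.06 (adjusted p = 1.2e-76). The smallest falls were those of *KIF14* (-0.61 ± 0.09) and *KIF20B* (-0.54 ± 0.07).

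In the same derived response 13 transport kinesin genes were higher, 0 were lower and 4 did not pass, with a median of 0.29. Over all genes 29.2% were higher and 29.6% were lower. *KIF17* rose from 409 to 771 normalized counts, a log2 value of 0.92 ± 0.08 (adjusted p = 8.8e-28). *KIF3B* rose from 5212 to 8741 normalized counts, by 0.75 ± 0.05 (adjusted p = 3.5e-42), and *KIFC3* from 4028 to 6077, by 0.59 ± 0.04 (adjusted p = 1.2e-43). *KIF21B*, a neuronal motor that pauses microtubule growth, rose by 0.53 ± 0.10 (adjusted p = 1.5e-06). *KIF16B*, an early endosome motor (adjusted p = 2.4e-08), and *KIF1B*, a carrier of mitochondria and vesicles (adjusted p = 1.4e-07), both rose by 0.42. The 3 kinesin-1 heavy chains *KIF5A* (0.08), *KIF5B* (-0.09) and *KIF5C* (-0.06) and the minus-end motor *KIFC2* (0.02) did not pass. Of the other kinesins, *KIF24* (-1.17) and *KIF26A* (-0.92) were lower, *KIF7* (0.44), *KIF9* (0.41) and *KIF27* (0.40) were higher, and *KIF26B* (-0.97), *KIF6* (-0.43) and *KIF2A* (0.01) did not pass.

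**Figure D2:**
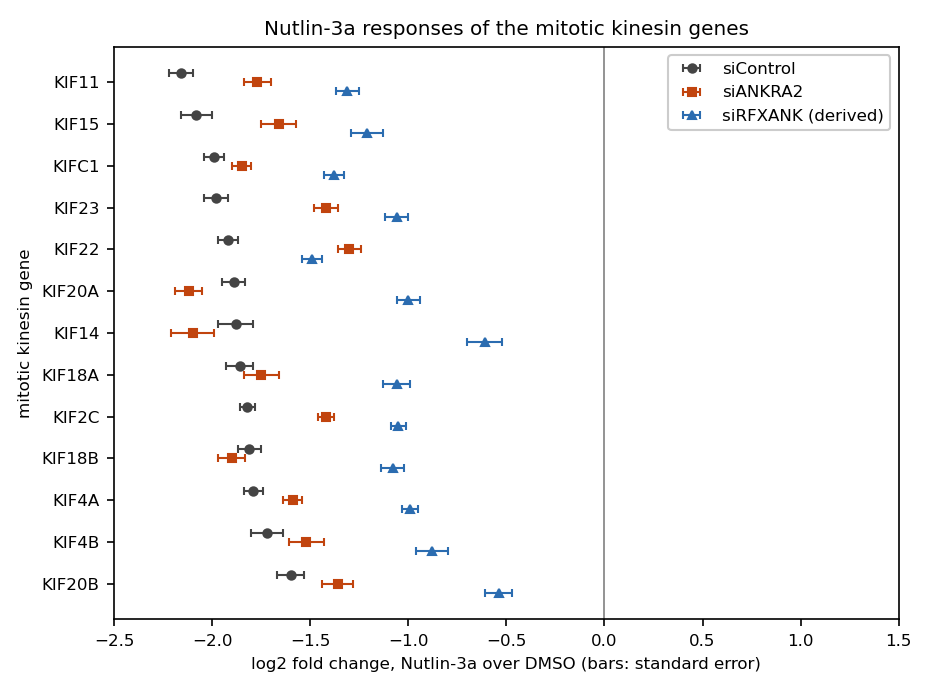
Log2 fold change of the 13 mitotic kinesin genes (vertical axis) for Nutlin-3a over DMSO (horizontal axis) in siControl, siANKRA2 and siRFXANK cells, with 3 samples a group; points are estimates, bars are standard errors, and the siRFXANK values are derived. Every point lies below 0, and the siRFXANK points lie nearest to 0 for all genes except *KIF22*, where the siANKRA2 point does.

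Differences between these responses were tested directly. Between siANKRA2 and siControl cells, 6 mitotic kinesin genes had a higher response (a smaller fall) after siANKRA2 and 7 did not pass, against 14.0% of all genes higher and 15.2% lower by the normal test with Benjamini-Hochberg adjustment. The median difference of the class was 0.20 on the log2 scale. The called differences were 0.62 ± 0.07 for *KIF22* (adjusted p = 4.2e-15), 0.56 ± 0.08 for *KIF23* (adjusted p = 6.6e-10), 0.42 ± 0.12 for *KIF15* (adjusted p = 0.0039), 0.40 ± 0.06 for *KIF2C* (adjusted p = 8.5e-11), 0.39 ± 0.09 for *KIF11* (adjusted p = 1.8e-04) and 0.20 ± 0.07 for *KIF4A*. *KIF20A* (-0.23 ± 0.09) and *KIF14* (-0.23 ± 0.14) had values of the opposite sign that did not pass (adjusted p = 0.061 and 0.29). Like the rest of the class, the 6 genes with a smaller fall were already lower after siANKRA2 in DMSO. None of the 6 was higher than in siControl under Nutlin-3a. There *KIF15* (-0.88), *KIF4A* (-0.72), *KIF11* (-0.60) and *KIF22* (-0.41) were lower after siANKRA2, and *KIF23* (-0.13) and *KIF2C* (-0.07) did not pass. The transport class had 1 higher, 5 lower and 11 not called, with a median of -0.12. *KIF17* had the largest difference of any kinesin gene, -1.60 ± 0.14 (adjusted p = 5.7e-29), followed by *KIFC3* with -0.38 ± 0.06 (adjusted p = 5.8e-09), *KIF3C* with -0.36 ± 0.08 (adjusted p = 2.4e-05), *KIF3B* with -0.30 ± 0.08 (adjusted p = 6.3e-04) and *KIF1B* with -0.28 ± 0.11 (adjusted p = 0.035). *KIF21A* was higher by 0.20. Of the other kinesins, *KIF24* (0.62) and *KIF26A* (0.49) were higher, *KIF7* (-0.45) and *KIF9* (-0.34) were lower, and *KIF27* (0.48), *KIF2A* (0.13), *KIF26B* (-0.30) and *KIF6* (-0.11) did not pass.

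Between siRFXANK and siControl cells, all 13 mitotic kinesin genes had a smaller fall after siRFXANK, against 15.6% of all genes higher and 13.0% lower. The median difference was 0.84, with values from 0.43 to 1.26. *KIF14* differed by 1.26 ± 0.13 (adjusted p = 4.7e-19). Its recovered group means were 2094 and 570 normalized counts in siControl, and 1058 and 691 in siRFXANK, in DMSO and Nutlin-3a respectively, so that the siRFXANK group was lower in DMSO and higher in Nutlin-3a. *KIF20B* differed by 1.06 ± 0.10 (adjusted p = 1.9e-25), *KIF23* by 0.92 ± 0.08 (adjusted p = 1.2e-26), *KIF20A* by 0.89 ± 0.09 (adjusted p = 4.7e-23) and *KIF15* by 0.87 ± 0.11 (adjusted p = 2.4e-12). The transport class had 9 higher, 2 lower and 6 not called, with a median of 0.22. *KIF17* again had the largest difference of its class, -1.17 ± 0.14 (adjusted p = 8.4e-16), and *KIF21B* had 0.70 ± 0.15 (adjusted p = 3.3e-05), *KIF21A* 0.34 ± 0.08 (adjusted p = 2.6e-04), *KIF3B* 0.33 ± 0.08 (adjusted p = 1.9e-04) and *KIF5B* 0.31 ± 0.07 (adjusted p = 2.3e-04). *KIF24* (0.92), *KIF27* (0.68), *KIF26A* (0.32) and *KIF2A* (0.29) were higher, and *KIF26B* (0.30), *KIF9* (0.03), *KIF7* (-0.06) and *KIF6* (-0.46) did not pass. Both sets of differences share the siControl samples, and for siRFXANK the siRNA and the separate registration cannot be told apart.

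**Figure D3:**
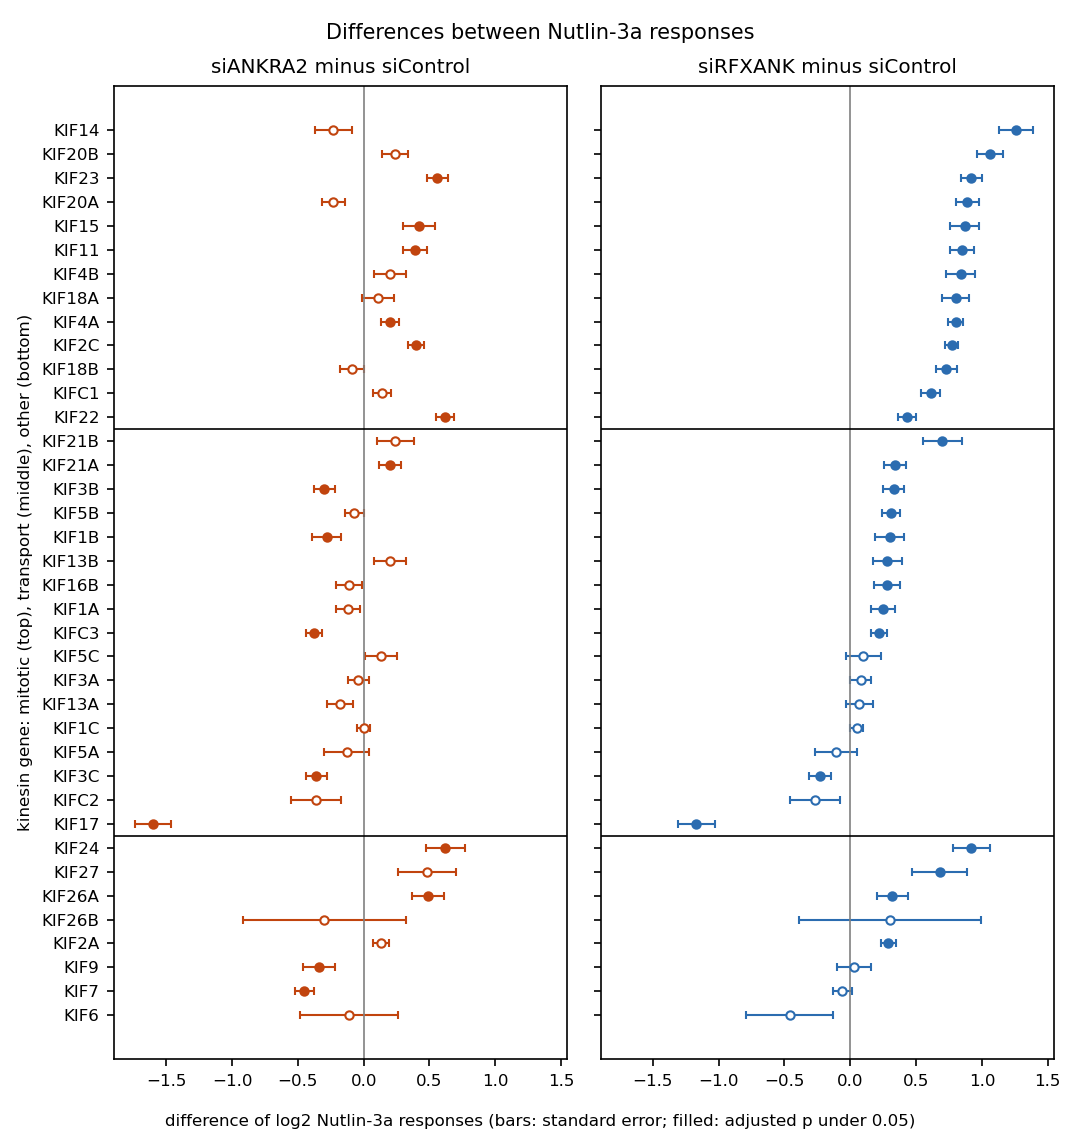
Difference of the log2 Nutlin-3a response (horizontal axis) of each of the 38 kinesin genes (vertical axis, by class) between siANKRA2 and siControl cells (left) and between siRFXANK and siControl cells (right); bars are standard errors, and filled points passed the normal test with an adjusted p under 0.05. All 13 mitotic kinesin genes are filled and above 0 on the right, 6 are on the left, and *KIF17* has the lowest value on both sides.

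The siANKRA2 comparison in DMSO showed the kinesin genes without Nutlin-3a. All 13 mitotic kinesin genes were lower after siANKRA2, against 34.0% of all genes lower and 32.7% higher. The median of the class was -1.03, with values from -1.75 to -0.47. *KIF20A* had recovered group means of 6658 normalized counts in siControl and 1982 in siANKRA2, a log2 fold change of -1.75 ± 0.06 (adjusted p = 1.1e-181). *KIF14* had 2094 and 788 normalized counts and -1.41 ± 0.09 (adjusted p = 1.6e-51). *KIF15* had -1.30 ± 0.08 (adjusted p = 1.8e-63), *KIF18A*, which aligns chromosomes by damping their movement, had -1.17 ± 0.07 (adjusted p = 5.1e-61), and *KIF18B* had -1.14 ± 0.06 (adjusted p = 2.0e-87). The smallest difference was that of *KIF2C*, which depolymerizes microtubules at centromeres to correct attachments, with 7026 and 5070 normalized counts and -0.47 ± 0.04 (adjusted p = 1.6e-35). *CDKN1A*, which encodes p21, had a log2 fold change of 2.04 in the same comparison, and *MYBL2*, an activator of G2 and mitosis genes, had -1.91. Cell type markers differed in the siANKRA2 comparisons as well. Of the 4 epithelial markers above the minimum mean, 3 were higher in DMSO, namely *CDH1* (1.56), *KRT18* (1.09) and *KRT8* (0.41), and all 4 were higher in Nutlin-3a, with values from 0.20 to 1.12. Of the 6 mesenchymal markers in DMSO, *FN1* (1.42), *COL1A2* (0.96) and *COL1A1* (0.60) were higher and the other 3 were lower, of which *VIM* had -0.55. In Nutlin-3a 1 was higher and 3 were lower, with *VIM* at -0.94. Over all genes in Nutlin-3a, 33.4% were higher and 35.0% were lower after siANKRA2. The part of these regulators and markers in the kinesin values was not tested.

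After siANKRA2 in DMSO the transport class had 6 higher, 6 lower and 5 not called, with a median of -0.09, which is close to the shares of 32.7% higher and 34.0% lower over all genes. *KIF17* was higher by 1.71 ± 0.11 (adjusted p = 5.4e-53), with 114 normalized counts in siControl and 375 in siANKRA2. *KIFC3* had 2596 and 6541 normalized counts, a log2 fold change of 1.33 ± 0.04 (adjusted p = 1.8e-206). Both minus-end motors of the class changed, in opposite directions, since *KIFC2* had 910 and 364 normalized counts and -1.32 ± 0.14 (adjusted p = 1.3e-21). Of the kinesin-1 heavy chains, *KIF5A*, the neuronal one, had -1.07 ± 0.12 (adjusted p = 1.9e-18) and *KIF5B* -0.74 ± 0.05 (adjusted p = 9.8e-45), whereas *KIF5C* had 0.01 and did not pass. The remaining called members were *KIF21B* (0.62), *KIF3C* (0.55), *KIF1C* (0.23) and *KIF1A* (0.18), which were higher, and *KIF13B* (-0.65), *KIF3A* (-0.19) and *KIF3B* (-0.17), which were lower. Of the other kinesins, *KIF9* (0.40) and *KIF7* (0.32) were higher, *KIF24* (-1.07), *KIF27* (-1.03), *KIF6* (-0.99), *KIF26A* (-0.53) and *KIF2A* (-0.27) were lower, and *KIF26B* (-0.61) did not pass.

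The siANKRA2 comparison in Nutlin-3a asked the same in treated cells. Of the mitotic kinesin genes, 11 were lower and 2 did not pass, against 35.0% of all genes lower and 33.4% higher, and the median was -0.77. *KIF20A* had 1790 normalized counts in siControl and 456 in siANKRA2, a log2 fold change of -1.97 ± 0.07 (adjusted p = 2.6e-166), which left it at 6.84% of its level in siControl with DMSO. *KIF14* had -1.64 ± 0.11 (adjusted p = 2.9e-48) and was at 8.75% of that level. *KIF18B* had -1.24 ± 0.07 (adjusted p = 4.7e-63), *KIF18A* -1.06 ± 0.09 (adjusted p = 5.2e-30) and *KIFC1* -0.98 ± 0.06 (adjusted p = 5.8e-66). *KIF23* (-0.13, adjusted p = 0.069) and *KIF2C* (-0.07, adjusted p = 0.15) were the members that did not pass, and in DMSO they had the smallest differences of the class (-0.69 and -0.47).

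Of the transport class in Nutlin-3a, 4 were higher after siANKRA2, 8 were lower and 5 did not pass, with a median of 0.05. Over all genes 33.4% were higher and 35.0% were lower. *KIFC2* had 1119 normalized counts in siControl and 349 in siANKRA2, -1.68 ± 0.14 on the log2 scale (adjusted p = 2.6e-34), and *KIF5A* had -1.20 ± 0.12 (adjusted p = 3.2e-23). *KIFC3* was higher by 0.95 ± 0.04 (adjusted p = 9.0e-109) and *KIF21B* by 0.86 ± 0.10 (adjusted p = 1.9e-17). *KIF5B* had 5071 and 2886 normalized counts and -0.81 ± 0.05 (adjusted p = 7.3e-52). *KIF17*, which was among the largest values in DMSO, had 0.11 ± 0.08 (adjusted p = 0.28) in Nutlin-3a, with 486 and 525 normalized counts. The other called members were *KIF1C* (0.23) and *KIF3C* (0.19), which were higher, and *KIF3B* (-0.47), *KIF13B* (-0.44), *KIF1B* (-0.40), *KIF13A* (-0.31) and *KIF3A* (-0.23), which were lower. Among the 8 other kinesins, *KIF6* (-1.10), *KIF27* (-0.55), *KIF24* (-0.44), *KIF2A* (-0.14) and *KIF7* (-0.13) were lower, and *KIF26B* (-0.92), *KIF26A* (-0.04) and *KIF9* (0.07) did not pass.

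Group levels of lead members over the 6 groups show how treatment and knockdown combined. *KIF20A* had 6658 normalized counts in siControl with DMSO, 1790 in siControl with Nutlin-3a, 1982 in siANKRA2 with DMSO, 456 in siANKRA2 with Nutlin-3a, 5325 in siRFXANK with DMSO and 2657 in siRFXANK with Nutlin-3a. Its levels in untreated siANKRA2 cells and in treated siControl cells were thus close to each other. *KIF17* was lowest in siControl with DMSO, at 114 normalized counts, and was at 375 in siANKRA2 with DMSO and 409 in siRFXANK with DMSO. With Nutlin-3a it was at 486, 525 and 771 in siControl, siANKRA2 and siRFXANK. *KIFC3* was at 2596 and 3366 in siControl, 6541 and 6504 in siANKRA2, and 4028 and 6077 in siRFXANK, in DMSO and Nutlin-3a respectively. It did not respond detectably to Nutlin-3a in siANKRA2 cells (-0.01, adjusted p = 0.92).

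**Figure D4:**
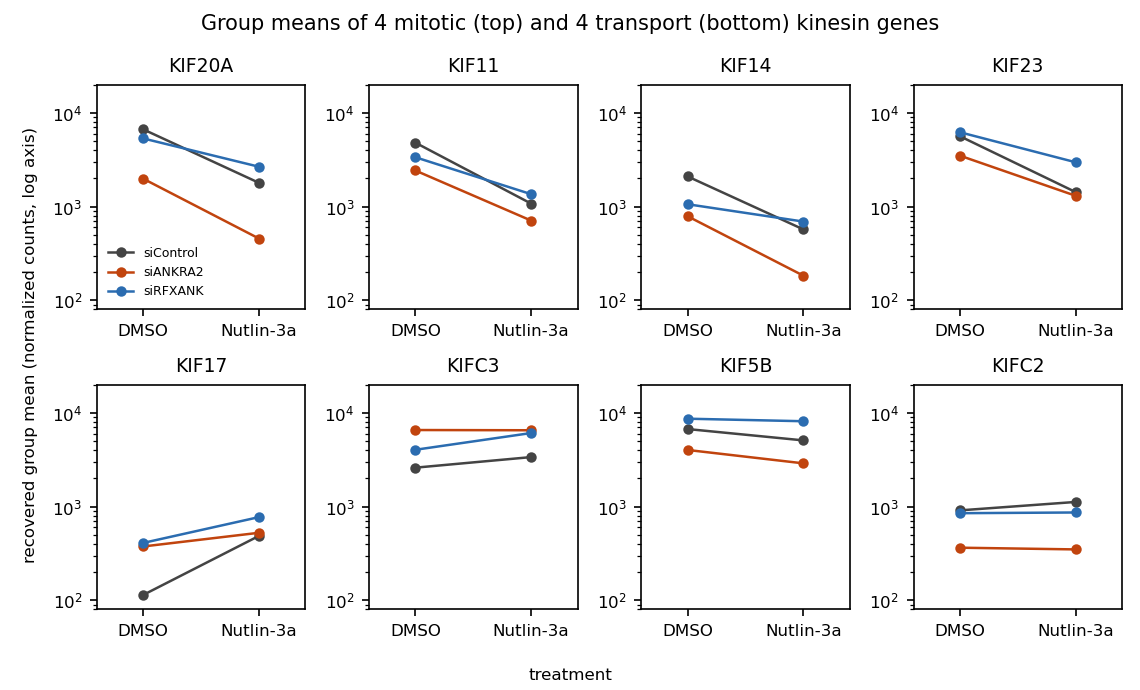
Recovered group means in normalized counts (vertical, log axis) of 4 mitotic kinesin genes (top) and 4 transport kinesin genes (bottom) in DMSO and Nutlin-3a (horizontal), with lines joining the 2 groups of each siRNA; each point stands for 3 samples and has no error of its own. All lines fall for *KIF20A*, *KIF11*, *KIF14* and *KIF23*, and the *KIF17* lines start apart, at 114 normalized counts in siControl and at 375 and 409 in the knockdowns.

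The siRFXANK comparison in DMSO divided the mitotic kinesin genes, with 3 higher, 7 lower and 3 not called, against 28.2% of all genes higher and 29.1% lower. The median of the class was -0.21, with values from -0.99 to 0.37. *KIF14* had the lowest value, -0.99 ± 0.09 (adjusted p = 3.7e-26), with 2094 normalized counts in siControl and 1058 in siRFXANK. *KIF15* had -0.71 ± 0.07 (adjusted p = 2.2e-20), *KIF11* -0.52 ± 0.06 (adjusted p = 9.6e-18), *KIF20B* -0.46 ± 0.07 (adjusted p = 2.7e-11) and *KIF18A* -0.37 ± 0.07 (adjusted p = 1.4e-07). *KIF22* was higher by 0.37 ± 0.05 (adjusted p = 9.9e-15), and *KIF23* (0.14) and *KIF2C* (0.13) were higher by less. *KIF18B* (-0.12), *KIF4B* (-0.03) and *KIF4A* (-0.01) did not pass. In the transport class 4 were higher, 8 were lower and 5 did not pass, with a median of -0.13. *KIF17* was higher by 1.84 ± 0.11 (adjusted p = 1.0e-61) and *KIFC3* by 0.63 ± 0.04 (adjusted p = 1.8e-45), and *KIF5B* (0.37) and *KIF13B* (0.34) were higher as well. The lowest values were those of *KIF5C* (-0.65 ± 0.09, adjusted p = 6.8e-12), *KIF21A* (-0.55 ± 0.06, adjusted p = 1.4e-20), *KIF5A* (-0.50 ± 0.11, adjusted p = 4.8e-05) and *KIF1B* (-0.50 ± 0.08, adjusted p = 3.8e-10). Outside both classes, *KIF26B* (-1.90), *KIF27* (-0.79), *KIF24* (-0.44), *KIF26A* (-0.40) and *KIF2A* (-0.26) were lower, and *KIF6* (0.06), *KIF7* (-0.11) and *KIF9* (-0.11) did not pass. The *KIF26B* value rests on few reads, with recovered group means of 31.2 and 8.38 normalized counts.

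In Nutlin-3a, 12 of the 13 mitotic kinesin genes were higher in siRFXANK than in siControl cells and *KIF15* (0.17, adjusted p = 0.12) did not pass, against 25.9% of all genes higher and 25.9% lower. The median of the class was 0.61. *KIF23* had 1425 normalized counts in siControl and 2964 in siRFXANK, a log2 fold change of 1.06 ± 0.06 (adjusted p = 1.7e-68). *KIF2C* had 1991 and 3698 normalized counts and 0.89 ± 0.04 (adjusted p = 2.1e-103). *KIF4B* (0.81 ± 0.09, adjusted p = 1.1e-19), *KIF22* (0.80 ± 0.05, adjusted p = 1.1e-49) and *KIF4A* (0.79 ± 0.05, adjusted p = 2.9e-57), all bound to chromosomes, followed. *CDKN1A* had -0.88 in this comparison and -0.06 in DMSO. Of the 4 epithelial markers above the minimum mean, *CDH1* (-0.88) and *KRT8* (-0.55) were lower and 2 did not pass. Of the 6 mesenchymal markers, *FN1* (-0.94), *COL1A1* (-0.12) and *VIM* (-0.08) were lower and 3 did not pass. The part of *CDKN1A* and of these markers in the kinesin values was not tested. The transport class had 8 higher, 7 lower and 2 not called, with a median of 0.08. *KIFC3* was higher by 0.85 ± 0.04 (adjusted p = 6.0e-87), *KIF5B* by 0.68 ± 0.05 (adjusted p = 4.8e-38), *KIF17* by 0.67 ± 0.08 (adjusted p = 1.3e-15) and *KIF13B*, an endosome and vesicle motor, by 0.62 ± 0.08 (adjusted p = 7.5e-15). *KIF5A* was lower, at -0.61 ± 0.11 (adjusted p = 4.4e-07), and *KIF5C* was at -0.54, so the 3 kinesin-1 heavy chains did not move together. In the group of other kinesins, *KIF24* (0.47) was higher, *KIF26B* (-1.60) and *KIF7* (-0.17) were lower, and *KIF27* (-0.11), *KIF2A* (0.03), *KIF6* (-0.39), *KIF26A* (-0.08) and *KIF9* (-0.08) did not pass.

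**Figure D5:**
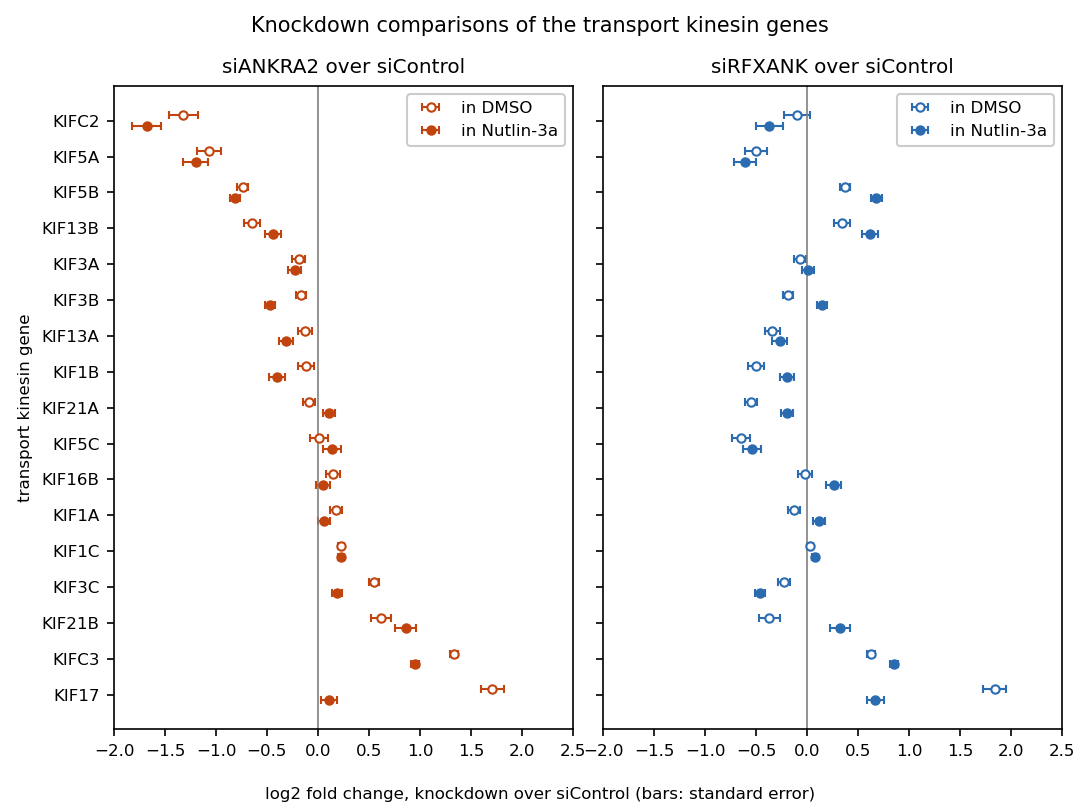
Log2 fold change of knockdown over siControl (horizontal axis) for the 17 transport kinesin genes (vertical axis) after siANKRA2 (left) and siRFXANK (right), in DMSO (open) and in Nutlin-3a (filled), with 3 samples a group; bars are standard errors. *KIFC3* is to the right of 0 in all 4 comparisons and *KIF5A* to the left in all 4, *KIF5B* is on opposite sides for the 2 siRNAs, and *KIF17* is far to the right of 0 in DMSO, at 1.71 and 1.84.

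Genes outside the name rule were read from fixed lists for comparison. *CENPE*, the kinetochore kinesin that carries chromosomes to the spindle equator, had Nutlin-3a responses of -1.99 ± 0.13 in siControl, -1.97 ± 0.14 in siANKRA2 and -0.56 ± 0.13 in siRFXANK, and its difference between siRFXANK and siControl was 1.43 ± 0.19 (adjusted p = 1.4e-12). *STARD9*, a centrosomal kinesin, had responses of 0.47, 0.26 and 0.96, of which the second did not pass. Among 14 spindle and midzone partners of mitotic kinesins, 14 were lower with Nutlin-3a in each of the 3 states, with medians of -1.72, -1.39 and -1.02, against 28.9%, 20.6% and 29.6% of all genes lower in siControl, siANKRA2 and siRFXANK. In siControl the lowest values were those of *NUSAP1* (-2.19), which bundles spindle microtubules, *AURKB* (-2.01), the kinase of the chromosomal passenger complex, and *PLK1* (-1.99), a mitotic kinase. After siANKRA2 in Nutlin-3a the lowest values were those of *HMMR*, a spindle assembly factor, *PLK1* (-1.79) and *TPX2* (-1.26), which activates Aurora A at the spindle. A list of 22 other mitosis genes had 22 lower in each state, against the same shares, with medians of -1.89, -1.61 and -1.02. All 22 had a smaller fall in siRFXANK than in siControl, with a median difference of 0.72, against 15.6% of all genes with a higher response.

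Lists of partners of the transport kinesins and of the other microtubule motor were read in the same way. Of 11 light chains and cargo adaptors, 7 were higher, 1 was lower and 3 did not pass in siControl, with a median of 0.15, against 28.8% of all genes higher and 28.9% lower, and *KLC3*, a kinesin light chain, had the largest value, followed by *KIFAP3* (0.59), the partner of the kinesin-2 motors. After siANKRA2 in DMSO, 6 were higher and 3 were lower, against 32.7% and 34.0% of all genes. *MAPK8IP2*, a scaffold that binds kinesin-1, had 2.60 ± 0.34 in that comparison and 3.49 ± 0.36 in Nutlin-3a. Its mean was low, at 27.3 normalized counts. *KLC4*, another light chain, had -1.45 and -1.65 in the same comparisons. Of 16 subunits of cytoplasmic dynein and dynactin, which move toward minus ends, 6 were higher, 5 were lower and 5 did not pass in siControl, with a median of 0.03, which is close to the shares of 28.8% and 28.9% over all genes. *DYNC1I1*, a dynein intermediate chain of low level here, had -2.40 ± 0.33 in siControl, and its difference between siANKRA2 and siControl was 1.83 ± 0.43. Of 11 regulators of the cell cycle and of the DREAM complex, 3 were higher and 8 were lower in siControl, against 28.8% and 28.9% of all genes. *CDKN1A* had Nutlin-3a responses of 3.27 in siControl, 1.42 in siANKRA2 and 2.45 in siRFXANK, *MYBL2* had -1.96, -2.28 and -1.62, and *LIN9*, a DREAM core subunit, had -1.81 in siControl. In DMSO *CDKN1A* was already 2.04 higher in siANKRA2 than in siControl cells, so its smaller response there started from a raised level.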

How the data were processed

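RNA-seq of 18 samples in 6 groups of 3 was analysed from 6 tables of comparisons. Per the labels, the submitters' processing notes name Trimmomatic 0.39, cutadapt 2.10, SAMtools 1.10, featureCounts 1.6.5, DESeq2 1.20.0 and hg38. The aligner, the annotation and the use of strand are not given in the sources used here. The paper given with the series does not describe this experiment.

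Each deposited table gives, per gene, the mean normalized count over all samples, treated here as a signal value. The authors' fold change and its standard error are log2 values. Their ratio is the deposited Wald score, and the deposited p-value comes with its Benjamini-Hochberg adjusted p-value. These are the authors' own comparisons, and the kinesin rows were read from them because the tables hold no values per library. The 4 siControl and siANKRA2 tables added up around their cycle with an error of at most 1.4e-14 on the log2 scale.

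With Python 3.11.15, NumPy 2.4.6, pandas 2.3.3 and SciPy 1.17.1, differences between responses were divided by their standard error, whose square is the sum of both squared standard errors, tested two-sided with the normal distribution and adjusted over all genes with both values. The siRFXANK response is the siControl response plus the siRFXANK effect in Nutlin-3a minus that in DMSO. Its squared standard error is the sum for both effects minus that of the siControl response. Both steps assume that these comparisons come from the same fit, and the siRFXANK comparisons form no cycle that could check it. Group means were fitted by least squares from the standard errors. The threshold was an adjusted p of 0.05 in each test. Tested on simulated data of 18177 genes, of which 200 were changed 2-fold, the test recovered 161 with 10 false calls for siANKRA2 and 150 with 7 for siRFXANK, and 95% of derived responses lay within their 95% interval. The simulated counts were drawn with the same spread that their standard errors then used, and without a batch difference. The simulation therefore checks the arithmetic and cannot show that the standard errors suit these samples.

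Gene positions are from GENCODE 29, which holds 26659 of 26702 gene IDs (99.8%). Full values are given for the 5 mitotic and 5 transport kinesins with the largest called values in each comparison. The members and lists were chosen with earlier results of these data known. Alternatives were a threshold of 0.01, a minimum log2 value, a minimum mean of 100, centring, a t distribution with 12 degrees of freedom, another role for *KIF2A* and *KIF24* and, added after seeing the data, leaving out *KIF4B*.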

Additional observations from a re-analysis of the deposited data

Results flagged for a closer look

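The Nutlin-3a response of 16 of the 38 kinesin genes differed between siANKRA2 and siControl cells by the normal test with Benjamini-Hochberg adjustment, against 14.0% of all genes with a higher and 15.2% with a lower response. The differences on the log2 scale were 0.39 for *KIF11*, 0.42 for *KIF15*, 0.62 for *KIF22*, 0.56 for *KIF23*, 0.40 for *KIF2C*, 0.20 for *KIF4A*, 0.62 for *KIF24*, 0.49 for *KIF26A* and 0.20 for *KIF21A*, which were higher. They were -0.45 for *KIF7*, -0.34 for *KIF9*, -1.60 for *KIF17*, -0.28 for *KIF1B*, -0.30 for *KIF3B*, -0.36 for *KIF3C* and -0.38 for *KIFC3*.

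Between siRFXANK and siControl cells, 28 of the 38 kinesin genes differed, against 15.6% of all genes with a higher and 13.0% with a lower response. All 13 mitotic kinesin genes were among them, with 0.85 for *KIF11*, 1.26 for *KIF14*, 0.87 for *KIF15*, 0.80 for *KIF18A*, 0.73 for *KIF18B*, 0.89 for *KIF20A*, 1.06 for *KIF20B*, 0.43 for *KIF22*, 0.92 for *KIF23*, 0.77 for *KIF2C*, 0.80 for *KIF4A*, 0.84 for *KIF4B* and 0.61 for *KIFC1*. The other kinesins had 0.92 for *KIF24*, 0.32 for *KIF26A*, 0.68 for *KIF27* and 0.29 for *KIF2A*. The transport kinesins had 0.28 for *KIF13B*, 0.28 for *KIF16B*, -1.17 for *KIF17*, 0.25 for *KIF1A*, 0.30 for *KIF1B*, 0.34 for *KIF21A*, 0.70 for *KIF21B*, 0.33 for *KIF3B*, -0.23 for *KIF3C*, 0.31 for *KIF5B* and 0.22 for *KIFC3*. *KIF1B*, *KIF3B* and *KIFC3* had a lower response than siControl after siANKRA2 and a higher one after siRFXANK.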

How the results depend on the processing

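With an absolute log2 value of at least 1 required in addition, the number of kinesin genes called was 17 for the siControl response, 10 for the derived siRFXANK response, 14 for siANKRA2 in DMSO, 7 for siANKRA2 in Nutlin-3a, 2 for siRFXANK in DMSO, 2 for siRFXANK in Nutlin-3a, and 1 and 3 for the differences of siANKRA2 and of siRFXANK from siControl. The fewer calls follow from the added minimum. The share of all genes that meets this minimum is not given here, so these counts only describe the setting. The siANKRA2 response stayed within 1.5 times, and so did all counts under a threshold of 0.01, a minimum mean of 100, centring on the median of all genes, the t distribution and, where it was run, leaving out *KIF4B*. No median of the mitotic or transport class changed its sign under centring. For the mitotic class this also held when *KIF2A* and *KIF24* were counted as mitotic or *KIF4B* was left out. A minimum mean of 100 could not change these medians, because it drops no member of either class. The lowest means were 651 for *KIF4B* and 331 for *KIF5A*. Over the 342 single values (each gene in each comparison), called or not, centring left 337 on the same side of the threshold and reversed none that was called. *KIFC2* (0.31, siControl response), *KIF13B* (0.23) and *KIF3A* (0.14, both siANKRA2 response) then passed, and *KIF1C* (0.07, siRFXANK in Nutlin-3a) and *KIF13B* (0.27, siRFXANK difference) no longer did. No paired analysis was possible because the tables give group comparisons without a value for each library, so leaving out a sample and another count model were not run either. Library depths are unknown, and standard errors of genes with few reads, such as *KIF26B* and *KIF6*, were the widest.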
